A study of Mus musculus with 6 samples.

Results

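The guanylate-binding proteins (GBPs) and immunity-related GTPases (IRGs) were examined in mouse splenic B cells stimulated through TLR9. The members were 10 genes chosen by symbol among the 23420 genes of the deposited values. There were 6 GBP genes (Gbp2, Gbp3, Gbp4, Gbp5, Gbp6 and Gbp7) and 4 IRG genes (Irgm1, Irgm2, Igtp and Iigp1). After CpG, 8 of the 9 members with enough reads to test were higher and none was lower, where 37.6% of all tested genes were higher and 36.7% lower. Gbp5 rose 2.69-fold and Gbp7 rose 2.40-fold. Gbp6 rose from near the limit of detection, in a call that was lost when 1 of 4 particular samples was left out. The other rises of members were of 1.36- to 1.50-fold. Of 9 tested GBP and IRG genes outside the member list, 2 were higher and 3 lower. The members were chosen with earlier results of these data known, so their count does not stand for the whole family.

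GBPs and IRGs are GTPases that cells make in response to interferons. The proteins gather on membranes around intracellular bacteria and parasites, where they help break down the vacuole, expose microbial products to inflammasomes and recruit ubiquitin and autophagy factors. Their genes are textbook targets of the JAK-STAT pathway: interferon-γ acts mainly at GAS elements, and type I interferon acts through a complex that contains STAT2 and IRF9 at interferon-stimulated response elements (ISREs). IRG proteins of the IRGM group are regulators that hold the effector IRGs inactive on the membranes of the cell itself, and the effectors, such as Iigp1, are loaded onto vacuoles.

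All samples were B cells isolated with beads from spleens of WT BALB/c mice 7 to 11 weeks old, 3 mice by the labels, with no engineered allele. The 3 stimulated samples were cultured for 4 h with CpG ODN 1826, a synthetic DNA ligand of TLR9, at 10 μg/mL and 10 M cells per mL, and the 3 unstimulated samples were left without agonist. Replicates 1 and 2 of each group were from female and replicate 3 from male mice, so that sex and replicate number go together. The labels do not say whether same-numbered samples share a mouse, and p values measure the spread between these samples. If the 3 mice gave both groups, the samples are paired, and the main fit, on group only, leaves that pairing out. A member's call that changed in a fit with the replicate number as a block is given below. The design question addressed here was which genes of this family change with TLR9 stimulation of WT B cells.

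Expression was measured by RNA-seq and is given as log2 CPM, that is, as counts scaled to a common total. The values were quantile normalized, so depth and total RNA per cell do not show in them. Genes without reads centre on -5.15, which corresponds to a library size of 17.8 M reads, and puts 10 reads at -0.76 and 3 reads at -2.34. The values also carry a shift by gene and replicate number, so genes without reads lie somewhat above or below -5.15, and these levels are approximate for a single gene. They cover counting error only. Summed B cell markers were at 11.14 to 11.35 in stimulated and 11.76 to 11.99 in unstimulated samples on the log2 CPM scale. Of 6 T cell markers, none averaged over 10 reads, and their sum was at most -0.66 in stimulated and -0.73 in unstimulated samples. Summed myeloid markers, 4 of 6 of them over 10 reads on average, were at 3.32 to 3.96 and 2.88 to 3.85, and summed NK cell markers, 1 of 4 over 10 reads, at 0.60 to 1.38 and 1.59 to 1.78. Of the NK cell markers, Prf1 fell (log2FC -1.57). Klrb1c, which was not tested, went the other way, from -4.27, -4.79 and -4.90 without CpG to -0.84, 0.23 and 0.23 with it. Ncr1 and Klrk1 had no sample over 3 reads. Summed pDC markers, 3 of 4 over 10 reads, were at 6.99 to 7.06 and 7.98 to 8.03. Most of that sum was Tcf4 alone, at 6.66 on average in stimulated and 7.90 in unstimulated samples. Of the pDC markers, Bst2 rose (log2FC 0.92), Tcf4 and Ccr9 fell (-1.24 and -0.94), and Siglech was under 10 reads in all samples. Erythroid genes were high in replicate 2 of both groups, at 12.26 and 11.91 against 8.58 to 9.26 in the other samples. The part of other cells in the results was not tested, and in bulk samples fewer expressing cells and less RNA per cell cannot be told apart.

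Of the GBP genes, Gbp5 rose most among those with over 10 reads in every sample. Its product is a GBP that promotes inflammasome assembly. Gbp5 was at 5.51, 5.55 and 5.92 log2 CPM in stimulated replicates 1 to 3, and at 4.45, 3.93 and 4.33 in the unstimulated ones. Every stimulated sample was above every unstimulated sample, by a log2FC of 1.42 (SE 0.15, 95% interval 1.09 to 1.76, n = 3 per group, adjusted p = 1.11e-05 in limma with Benjamini-Hochberg adjustment over the 11233 genes tested). Gbp7, the next gene on the chromosome, was at 2.71, 2.26 and 2.76 after CpG and 1.28, 1.06 and 1.62 without. The groups did not overlap here either, and the log2FC was 1.26 (SE 0.21, adjusted p = 0.000292 in limma).

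Gbp3, Gbp4 and Gbp2 showed smaller differences, of 0.45 to 0.49 on the log2 scale. Gbp3 was at 4.47, 4.11 and 4.57 log2 CPM after CpG and at 4.03, 3.68 and 3.98 without, a log2FC of 0.49 (SE 0.14, adjusted p = 0.0098 in limma). Gbp4 was at 5.22, 4.92 and 5.08 after CpG and at 4.91, 4.47 and 4.50 without, a log2FC of 0.45 (SE 0.13, adjusted p = 0.00941 in limma). In both genes all stimulated samples were above all unstimulated samples, although the closest samples of Gbp4 were at 4.92 and 4.91. Gbp2, which carries a lipid tail that anchors it to membranes, was at 3.52, 3.65 and 3.92 after CpG. Without CpG it was at 3.67, 2.91 and 3.15, so unstimulated replicate 1 lay within the stimulated range. The log2FC of Gbp2 was 0.45 (SE 0.19, 95% interval 0.03 to 0.87) and missed the threshold in limma with an adjusted p of 0.0535. With the replicate number as a block (replicate block), the paired fit gave an adjusted p of 0.0234 for Gbp2 in limma, and without unstimulated replicate 1 the log2FC was 0.66 with an adjusted p of 0.00449. Without stimulated replicate 1 the adjusted p of Gbp2 was 0.0412 in limma. Other samples moved it the other way: the log2FC of Gbp2 was 0.28 without unstimulated replicate 2 (adjusted p = 0.198 in limma) and 0.34 without stimulated replicate 3 (0.179), and the adjusted p was 0.138 without unstimulated replicate 3 and 0.066 without stimulated replicate 2.

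Gbp6 had the highest log2FC and the widest interval of the 9 tested members. It was at 0.84, -0.08 and 0.50 log2 CPM after CpG, all over 10 reads. Without CpG it was at 0.20, -2.47 and -3.05, so that replicates 2 and 3 were under 3 reads and replicate 1 lay among the stimulated samples. The log2FC was 2.19 (SE 0.74, 95% interval 0.53 to 3.86, adjusted p = 0.0217 in limma), and within replicate numbers the difference was 0.64, 2.39 and 3.55. The call was lost without stimulated replicate 1 or 3 or without unstimulated replicate 2 or 3, with adjusted p values of 0.0547 to 0.0807 in limma, and without unstimulated replicate 1 the log2FC was 3.18. The count of Gbp6 is also uncertain. Of all 75-base runs of its reference transcript, 86% occur in other annotated genes, 57.2% in other genes of the deposited values and 51.7% in Gbp10. The coding sequences of Gbp6 and Gbp10 are 98.4% identical. Gbp10 itself was at 0.41, -1.21 and -1.99 after CpG and at 0.36, -1.62 and -0.55 without (log2FC -0.32, adjusted p = 0.681 in limma).

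The 3 tested IRG members rose by 0.51 to 0.58 on the log2 scale. Irgm1, a regulator of effector IRGs and of autophagy, was at 5.54, 5.50 and 5.58 log2 CPM after CpG and at 4.97, 5.04 and 5.07 without. The replicates of Irgm1 were the tightest of the 10 members, with an SD of 0.05 in each group, and the log2FC was 0.51 (SE 0.07, adjusted p = 8.06e-05 in limma). Irgm2, another regulator, was at 3.36, 3.19 and 3.59 after CpG and at 2.72, 2.97 and 2.84 without, a log2FC of 0.54 (SE 0.14, adjusted p = 0.00485 in limma). Igtp, the third of the regulators and also known as Irgm3, was at 3.68, 3.46 and 3.49 after CpG. Unstimulated Igtp was at 2.52, 3.21 and 3.16, with replicate 1 lowest, and the log2FC was 0.58 (SE 0.18, adjusted p = 0.014 in limma). Stimulated and unstimulated samples did not overlap for any of these 3 genes.

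Iigp1, the effector of the group, was near the limit of detection. It was at -2.31, -2.63 and -1.98 log2 CPM after CpG and at -1.20, -3.02 and -4.88 without. By the levels above, no sample reached 10 reads and 3 of 6 were over 3 reads, stimulated replicate 1 only just, so Iigp1 was not tested. The highest sample was an unstimulated one.

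**Figure D1:**
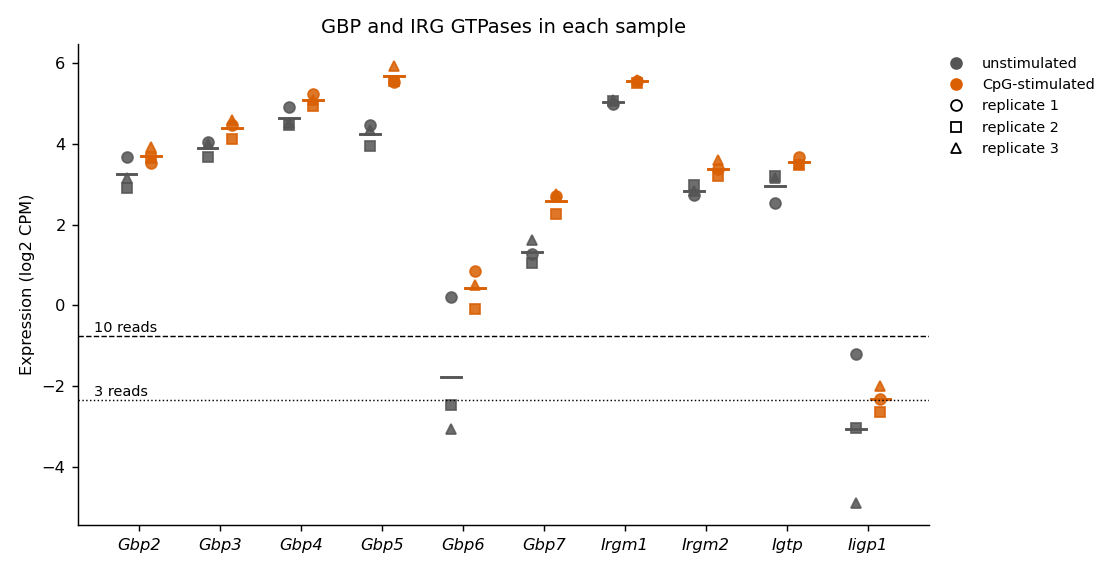
Expression of each member in log2 CPM (vertical axis) in the 3 unstimulated (grey) and 3 CpG-stimulated (orange) samples, with the replicate number as the symbol, group means as short bars, and dashed and dotted lines at the levels of 10 and 3 reads. The group means of Gbp5 and Gbp7 are 1.42 and 1.26 apart with no overlap of the samples, whereas unstimulated Gbp6 runs from 0.20 down to -3.05.

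Counted over the members, 8 of the 9 tested passed an adjusted p of 0.05 in the upward direction in limma, where 37.6% of all tested genes did. None was called lower, against 36.7% of all tested genes. Past a log2FC of 1, 3 members were called (Gbp5, Gbp6 and Gbp7), against 15.8% of all tested genes. The stimulated samples were all above the unstimulated ones in 7 members, the exceptions being Gbp2, Gbp6 and Iigp1, and this held for 39.1% of tested genes. The median log2FC was 0.54 in the tested members and 0.00 over all tested genes. The filter of over 10 reads in at least 3 samples was passed by Gbp6 through its 3 stimulated samples and 1 unstimulated sample, and by the other tested members in all 6 samples. With the replicate block, all 9 tested members were called higher, the paired fit adding Gbp2, where 4390 of the 11233 tested genes were. With both replicate 2 samples left out, a choice made after the erythroid genes were seen, 7 members were called and Gbp6 was lost (log2FC 2.09, adjusted p = 0.0725 in limma).

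Within replicate numbers, the 9 tested members were all higher after CpG in pairs 2 and 3, and 8 of them were in pair 1, the exception being Gbp2 at -0.16. The smallest difference of the 3 pairs was in pair 1 in 4 members, in pair 2 in 4 and in pair 3 in 1, against 24.6%, 48.5% and 26.9% of all genes called higher. Igtp differed most in pair 1, with differences of 1.16, 0.26 and 0.33 in pairs 1 to 3, and Gbp7 and Irgm1 were also largest in pair 1. The untested Iigp1 differed by -1.11, 0.39 and 2.90.

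**Figure D2:**
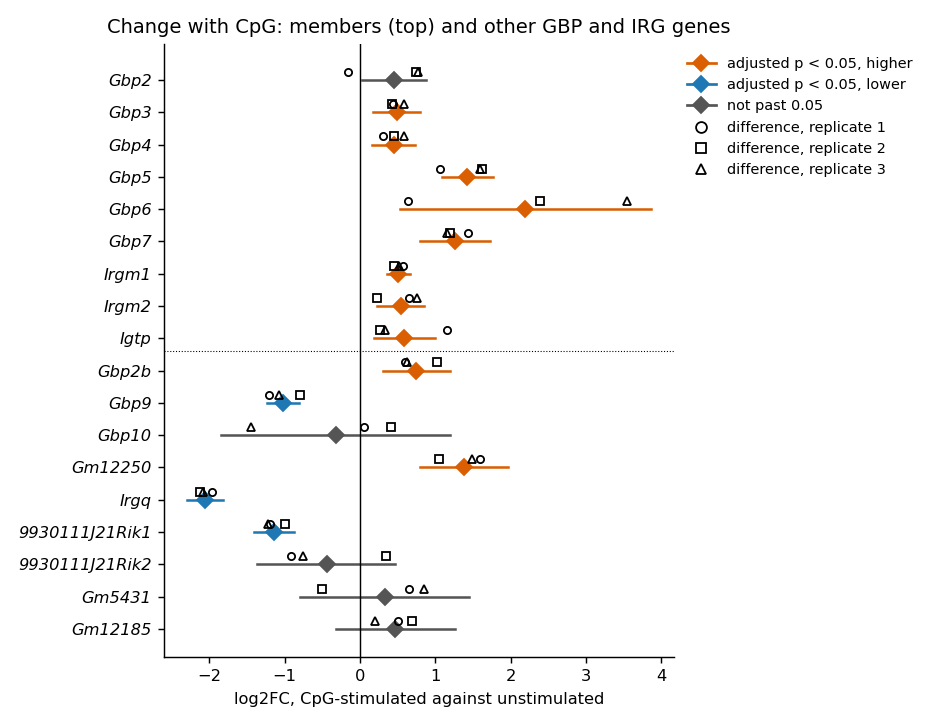
The log2FC of the 9 tested members (top) and of the 9 tested relatives (bottom), as diamonds with 95% intervals from limma, coloured by call, with the 3 differences within replicate numbers as open symbols. All member diamonds lie to the right of 0, whereas Gbp9, Irgq and 9930111J21Rik1 lie at or beyond -1.02.

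Levels were compared between genes only per length, as log2 CPM per kilobase of the reference transcript. In unstimulated B cells Irgm1 was highest, at 3.85 ± 0.05 (SD, n = 3), and its samples did not overlap those of any other member. Gbp5 (2.62 ± 0.27), Gbp3 (2.47 ± 0.19) and Gbp4 (2.44 ± 0.25) followed and overlapped among themselves. Igtp (1.95 ± 0.39) and Gbp2 (1.91 ± 0.39) overlapped with each other, and Irgm2 (1.05 ± 0.12) was apart from both. The highest Gbp2 sample (2.34) was also above the lowest samples of Gbp3 (2.26), Gbp4 (2.29) and Gbp5 (2.32). Gbp7, at -1.17 ± 0.28, lay far below its neighbours on the chromosome, and overlapped with Gbp6 at -3.15 ± 1.73. After CpG the order was the same, with Gbp5 at 4.05 ± 0.23 now next to Irgm1 at 4.36 ± 0.05. The highest stimulated Gbp5 sample (4.31) was just under the lowest Irgm1 sample (4.32). Gbp3 (2.96 ± 0.24) and Gbp4 (2.89 ± 0.15) still overlapped, and stimulated Gbp7 reached 0.09 ± 0.28. These levels rest on the reference transcript's length, and the isoform the cells use was not measured.

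**Figure D3:**
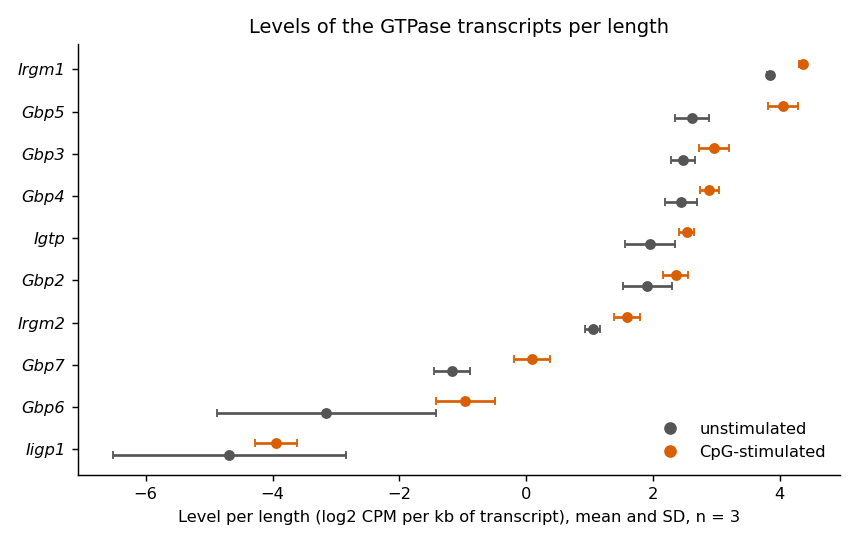
Level of each member per length, in log2 CPM per kilobase of the reference transcript, as the mean and SD of 3 samples per group, ordered by the unstimulated mean. Irgm1 leads in both groups and Gbp5 moves closest to it after CpG.

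The promoters of members are shown because the 9 tested members all had a positive log2FC, with 8 of them called higher. RefSeq promoter windows of build GRCm38.p6, from 250 bases before to 50 bases after the annotated start, matched 7 of the 10 members and 8 windows, as Gbp3 had 2 starts. Gbp4, Gbp6 and Iigp1 had no entry. The windows were searched on both strands for 4 motifs. These were the ISRE, taken as GAAA, 2 bases of any kind and GAAA, the GAS element, taken as TTCNNNGAA, the IRF-ETS composite element, taken as GGAA, 2 bases of any kind and GAAA, and the kappa-B site of NF-κB. The 250 bases before the start of 6 members are printed 5′ to 3′ on the gene's strand, with the matches in capitals. Gbp5 is at chr3:142496684-142496933 (+), Gbp7 at chr3:142530086-142530335 (+), Gbp2 at chr3:142620413-142620662 (+), Irgm1 at chr11:48871421-48871670 (-), Igtp at chr11:58199306-58199555 (+) and Irgm2 at chr11:58214727-58214976 (+).
Gbp5: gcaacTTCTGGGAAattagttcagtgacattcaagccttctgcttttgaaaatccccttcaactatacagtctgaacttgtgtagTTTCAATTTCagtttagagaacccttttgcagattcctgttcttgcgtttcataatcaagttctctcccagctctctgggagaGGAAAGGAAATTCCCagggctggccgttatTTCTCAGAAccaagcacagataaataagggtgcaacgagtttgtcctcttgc
Gbp7: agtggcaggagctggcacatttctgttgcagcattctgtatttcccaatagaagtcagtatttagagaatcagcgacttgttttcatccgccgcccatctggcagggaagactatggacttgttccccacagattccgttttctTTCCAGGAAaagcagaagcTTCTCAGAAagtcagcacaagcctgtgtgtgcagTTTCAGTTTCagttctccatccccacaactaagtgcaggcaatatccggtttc
Gbp2: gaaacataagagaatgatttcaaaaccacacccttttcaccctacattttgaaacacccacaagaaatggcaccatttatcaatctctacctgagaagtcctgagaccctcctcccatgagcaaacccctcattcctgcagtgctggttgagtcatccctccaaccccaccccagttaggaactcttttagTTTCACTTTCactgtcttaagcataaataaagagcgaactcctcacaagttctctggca
Irgm1: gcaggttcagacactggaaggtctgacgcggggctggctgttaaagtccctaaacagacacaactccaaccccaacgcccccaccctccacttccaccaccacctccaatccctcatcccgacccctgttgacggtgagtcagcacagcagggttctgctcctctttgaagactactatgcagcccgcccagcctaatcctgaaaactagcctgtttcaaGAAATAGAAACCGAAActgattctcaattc
Igtp: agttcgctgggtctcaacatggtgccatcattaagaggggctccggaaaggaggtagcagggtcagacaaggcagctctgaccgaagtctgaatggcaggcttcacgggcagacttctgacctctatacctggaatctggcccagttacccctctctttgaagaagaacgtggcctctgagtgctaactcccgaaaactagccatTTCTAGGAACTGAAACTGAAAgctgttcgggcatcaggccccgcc
Irgm2: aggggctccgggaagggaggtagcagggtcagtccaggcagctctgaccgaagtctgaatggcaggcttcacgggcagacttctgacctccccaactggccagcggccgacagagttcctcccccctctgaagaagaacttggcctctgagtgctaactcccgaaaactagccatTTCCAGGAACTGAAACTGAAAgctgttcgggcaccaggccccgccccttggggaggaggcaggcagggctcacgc

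An ISRE was found in all 7 member genes with a window, in 7 of the 8 windows, and in 3.44% of the 32851 promoters of the table. All of these ISREs lay before the start, the nearest in Irgm1 with matches at -30 to -21 and -24 to -15, which overlap, and the furthest in Gbp5 at -165 to -156. A GAS element was in 4 of the 7 genes and in 8.30% of all promoters. Gbp5 had GAS matches at -245 to -237 and -52 to -44, and Gbp7 had them at -106 to -98 and -87 to -79. Gbp5 and Gbp7 were thus the members with 2 GAS matches, and had the largest log2FC of the members over 10 reads in all samples, but with 7 genes no relation was tested. The IRF-ETS composite was in 3 of 7 genes (2.72% of all promoters) and a kappa-B site in 2 of 7 (8.46%). In Gbp5 the composite at -82 to -73 overlapped the kappa-B site at -77 to -68, which makes up the longer capital run in its sequence. Gbp2 had its kappa-B site after the start, at 8 to 17, outside the bases printed.

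In Igtp and Irgm2 the GAS element, the composite and the ISRE overlapped in a single stretch, at -45 to -25 in Igtp and -75 to -55 in Irgm2. Much of the sequence around that stretch is shared by the 2 promoters, and the coding sequences of the 2 genes are 66.9% identical. Their log2FC values were 0.58 and 0.54. Irgm1, with 2 overlapping ISREs and no GAS match, had a log2FC of 0.51, and Gbp2, with 1 ISRE before the start and no GAS match, had 0.45. A match is a description of letters and was not tied to binding of a factor in these cells.

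**Figure D4:**
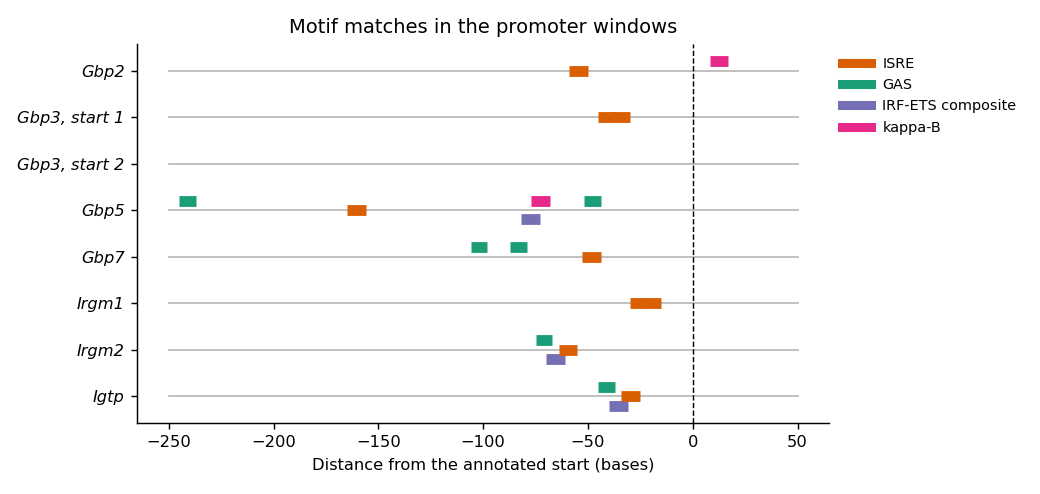
Positions of motif matches in the 8 promoter windows of the 7 members that had one, by distance in bases from the annotated start (dashed line), coloured by motif. ISRE matches lie upstream of the start in every gene, and Gbp5 and Gbp7 have 2 GAS matches each.

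The members sit in clusters. On chromosome 3 of GRCm38 the order is Gbp5 (142496934 to 142522344), Gbp7 (142530336 to 142550151), Gbp3 (142560016 to 142573213), Gbp2b (142594816 to 142619179) and Gbp2 (142620663 to 142638008). Along it the log2FC was 1.42, 1.26, 0.49, 0.75 and 0.45. Gbp2b, listed in the files as Gbp1, shares 82.5% of its coding sequence with Gbp2, and was called higher (adjusted p = 0.00682 in limma). On chromosome 5, Gbp9 (105076464 to 105110357) ends 5409 bases before Gbp4 (105115767 to 105139586). Gbp9 was at 4.23, 4.30 and 4.27 log2 CPM after CpG and at 5.44, 5.10 and 5.34 without. It fell with no overlap of the groups (log2FC -1.02, SE 0.10, 95% interval -1.24 to -0.81, adjusted p = 5.86e-06 in limma), whereas the interval of its neighbour Gbp4 was 0.16 to 0.73. The difference between the 2 genes was not itself tested.

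On chromosome 11, Gm12250 (58183843 to 58190198), Igtp (58199556 to 58207592) and Irgm2 (58214977 to 58222783) are neighbours, with 9357 and 7384 bases between them. Gm12250, also known as Irgb10, an effector IRG that acts on bacterial membranes, was at 2.75, 1.85 and 2.73 after CpG and at 1.15, 0.80 and 1.24 without. Its log2FC of 1.38 (SE 0.26, adjusted p = 0.000774 in limma) was larger than those of the 2 regulators beside it, a difference that was not tested. Its promoter window held 2 ISREs and a GAS element. Irgm1 (48865245 to 48871420) lies on the same chromosome at a distance, and Iigp1 is on chromosome 18.

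Of the 14 other GBP and IRG genes in the files, 9 were tested, of which 2 were called higher and 3 lower, against 37.6% and 36.7% of all tested genes. Besides Gbp9, the genes that fell were Irgq and 9930111J21Rik1. Irgq, a divergent member of the IRG family, went from 5.65, 5.53 and 5.77 without CpG to 3.68, 3.41 and 3.69 with it (log2FC -2.06, SE 0.11, adjusted p = 9.35e-08 in limma). No motif of the 4 was found in the Irgq window, whereas that of 9930111J21Rik1, which fell as well, held an ISRE after the start, at 27 to 36. Gm12185, which was not called (adjusted p = 0.253 in limma), had overlapping GAS, composite and ISRE matches at -86 to -66, in the same order as in Igtp and Irgm2. The 9930111J21Rik1 gene fell by 1.14 on the log2 scale (adjusted p = 1.05e-05 in limma), and as 70.9% of its 75-base runs occur in other genes its count is uncertain. Gbp8, with 1 sample over 10 reads, and Gbp11, with none over 3 reads, were not tested. Transcripts of Mx1 and Mx2, genes of the dynamin family induced by type I interferon, rose with log2FC values of 1.77 and 1.69 (adjusted p = 0.00401 and 6.92e-06 in limma). Whether functional Mx protein is made in these mice was not measured.

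Upstream of the GTPases, none of 21 interferon genes reached the filter, and 19 were at or under the level of 3 reads in every sample. A listing at the level of no reads does not show that a duplicated gene was silent: the near-identical Hba-a1 and Hba-a2 were listed at that level in all samples, in which the globin gene Beta-s was at 8.46 to 12.16. The levels of the Ifna genes were therefore not interpreted. Ifnb1 was at -3.96, -1.63 and -0.81 log2 CPM after CpG and at -4.04, -3.29 and -5.04 without, under the level of 10 reads throughout. Ifng was at -3.12, -2.17 and -4.53 after CpG and at -2.96, -0.59 and -0.34 without. Transcripts under 10 reads could not be compared at this depth.

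Of 9 receptor and JAK-STAT genes listed and tested, 7 fell and 2 rose, with a median log2FC of -0.82, where 36.7% of all tested genes fell and 37.6% rose. Stat2, a part of the type I interferon complex, was at 4.56, 4.25 and 4.46 after CpG and at 5.27, 5.33 and 5.71 without (log2FC -1.01, adjusted p = 4.36e-05 in limma). The receptor chains Ifnar1 and Ifngr2 fell by 0.98 and 0.91 on the log2 scale. Jak2 and Tyk2, the kinases bound to those receptors, fell by 0.82 and 0.88, and the changes of Ifngr1 and Jak1 were smaller, at -0.24 and -0.17. The genes that rose were Stat3, with a log2FC of 0.29, and Ifnar2, with 0.17. Without stimulated replicate 1, the calls of Ifnar2, Ifngr1 and Jak1 were lost, with adjusted p values of 0.0836, 0.0511 and 0.125 in limma. Other single samples did the same: stimulated replicate 3 and unstimulated replicates 1 and 3 for Ifnar2, unstimulated replicate 2 for Ifngr1, and any sample but stimulated replicate 3 for Jak1.

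Of the interferon regulatory factors with Nlrc5 and Ciita, 10 were tested. Of these, 3 rose and 1 fell, where 37.6% of all tested genes rose and 36.7% fell. With the replicate block, the paired fit, 3 rose and 4 fell, where 4390 and 4287 of the 11233 tested genes did. Irf8, which binds composite elements with ETS factors in B cells, rose from 9.24, 9.09 and 9.23 to 10.88, 10.76 and 10.86 (log2FC 1.65, adjusted p = 4.05e-08 in limma). Irf4, its close relative, rose by a log2FC of 0.97, and Irf9, the DNA-binding part of the type I interferon complex, by 0.19. Irf2, known to act at ISREs against the activating factors, fell by 1.50 on the log2 scale (adjusted p = 2.67e-07 in limma). Irf1, an activator of GBP genes, was at -0.18 and missed the threshold (adjusted p = 0.051 in limma). With the replicate block it was called lower (0.0198), as were Irf7 (log2FC -0.26, adjusted p = 0.136 without and 0.0138 with the block) and Ciita (log2FC -0.14, adjusted p = 0.184 without and 0.0421 with the block). Without unstimulated replicate 1 the adjusted p of Irf1 was 0.0358 in limma, and the call of Irf9 was lost (0.0639), as it was without stimulated replicate 3 (0.0989) or unstimulated replicate 3 (0.0551).

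Among 8 brakes on interferon signalling, 7 rose and none fell, where 37.6% of all tested genes rose. Socs3 was at 7.65, 7.87 and 7.67 after CpG and at 4.72, 5.54 and 4.74 without (log2FC 2.73, adjusted p = 5.57e-07 in limma). Socs1, which inhibits the JAK kinases, rose by a log2FC of 1.72, Cish by 1.01 and Usp18, which blocks the type I receptor, by 0.96. The call of Cish was near the threshold (adjusted p = 0.0477 in limma), and it was lost without any single sample other than unstimulated replicate 3, with adjusted p values of 0.055 to 0.146.

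Genes that work with the GTPases at vacuoles moved in both directions. The ATG8 conjugation genes, whose products mark membranes to which GBPs and IRGs are directed, were lower in 8 of 11 and higher in 2, with a median log2FC of -0.75, against 36.7% lower and 37.6% higher among all tested genes. Map1lc3a fell by 1.37, Atg10 by 1.34, Gabarap by 1.24 and Atg7 by 1.04 on the log2 scale, whereas Atg3 rose by 0.45. Of 4 ubiquitin factors, Traf6 rose with a log2FC of 0.64 and Sqstm1 fell by 0.30 on the log2 scale. Of 7 tested inflammasome genes 2 rose and 2 fell, shares below those of all tested genes. Il1b rose from 3.36, 4.10 and 3.96 to 6.04, 6.87 and 6.58 (log2FC 2.69, adjusted p = 2.2e-06 in limma). Myeloid cells also make Il1b, and their markers moved both ways in these samples. Adgre1, listed as Emr1, rose (log2FC 0.83, adjusted p = 0.00811 in limma), whereas Csf1r and Cd14 fell by 1.61 and 1.73 on the log2 scale. The summed myeloid markers were 3.32, 3.96 and 3.86 after CpG and 2.88, 3.83 and 3.85 without. The sum was higher after CpG in all 3 pairs, by very little in pair 3. Adgre1 was the largest of these markers, at 3.16 on average after CpG and 2.34 without. Lyz2, Csf1r, Cd14 and S100a8 were lower after CpG in all 3 pairs, and Itgam in pairs 2 and 3. The part of myeloid cells in the Il1b result was not tested. Casp4, which encodes the murine caspase-11 that senses cytosolic lipopolysaccharide exposed by GBPs, rose with a log2FC of 0.58, and Aim2 fell by 0.36 on the log2 scale. Of 5 genes of protein prenylation, 3 rose and 1 fell, against 37.6% and 36.7% of all tested genes. The farnesyltransferase subunits Fntb and Fnta had log2FC values of 0.92 and -0.44, and Pggt1b had 0.22.

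**Figure D5:**
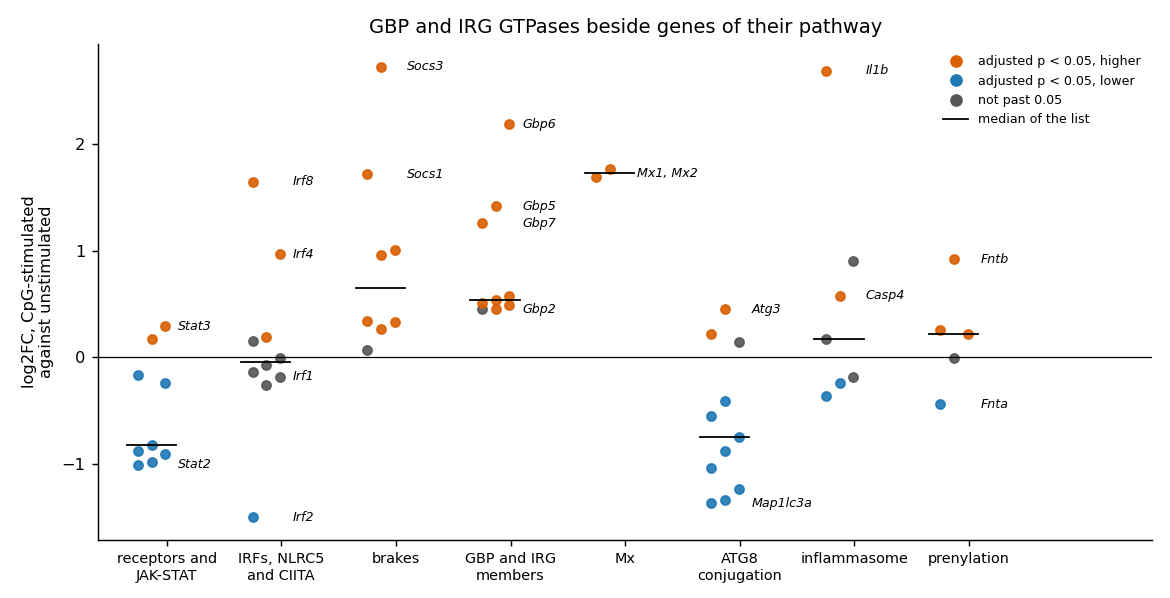
The log2FC of each tested gene in lists of the pathway, from receptors to partners, with the median of each list as a line and the call as the colour. The members and the brakes lie above 0, whereas most receptors, JAK-STAT and ATG8 conjugation genes lie below it.

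The profile over the 6 samples most like that of Gbp6, by the distance between deviations from the gene mean, belonged to 1500009C09Rik, at a distance of 1.07 log2 units, followed by Mir3096b, Nradd, Nipal4 and Chd5. These genes were chosen for their likeness to Gbp6, so their low values in unstimulated replicates 2 and 3 follow from the choice. For Gbp5, added after its values were seen, the nearest profiles were of Ufsp1 (0.20), Crip3, 3110009E18Rik, AF357399 and 8430427H17Rik, none of them a GBP or IRG gene.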

How the data were processed

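RNA-seq of 6 samples was used, 3 of CpG-stimulated and 3 of unstimulated WT B cells, grouped by the sample labels. Per the labels and the study's methods, the authors checked paired 75-base reads with FastQC 0.11.7, trimmed them with Trim Galore 0.6.5, aligned them to mm10 with STAR 2.6.1a and counted them per gene with featureCounts (Subread 2.0.1). The annotation and strand setting are not given in the sources used here. The deposited values are log2 CPM, which the authors made by quantile normalization and voom with 0.5 reads added. They are not counts, and they hold a shift shared by samples of the same replicate number: Gbp11, without reads, is at -5.42, -5.05 and -4.98 in replicates 1 to 3 of both groups. With all 6 samples, the log2FC of a gene does not change with this shift. The shift does enter the spread within groups, and so the SE and p values of fits without the replicate block. With 1 sample left out it also enters the log2FC.

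The test of each gene was a moderated one in limma 3.58.1 under R 4.3.3 (linear model, empirical Bayes with a variance trend), run on the 11233 genes above the level of 10 reads in at least 3 samples, with Benjamini-Hochberg adjustment and a threshold of 0.05. The procedure was tested on simulated data. The 10 members and the gene lists were chosen with earlier results of these data known. All members are named. From the lists, genes with an absolute log2FC of at least 1 or a role the text needs are named, and for the member that rose most the 5 nearest profiles. Same-numbered samples deviated together from their group means over the tested genes (r = 0.435, 0.224 and 0.300, against -0.281 to 0.028 for other combinations). On this basis the numbers were taken to pair the samples in the replicate block. The shift by replicate number enters these correlations, so they cannot show whether same-numbered samples share a mouse. Gene positions and promoters are from RefSeq on GRCm38, and transcript lengths from GENCODE. Sharing of 75-base runs and identity of coding sequences were computed with Biopython 1.88 in Python 3.11.15. Motifs were described, not tested. A gene of the signalling pathway is not reported here and was left out of its list. Alternatives were the replicate block, each sample left out, other filters, scales, centring and priors, and, added after the data were seen, both replicate 2 samples left out.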

Additional observations from a re-analysis of the deposited data

How the results depend on the processing

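Of 125 values of the 9 tested members under the alternatives, 109 kept their direction and their side of the threshold, and no member changed direction. The count of members called higher was 7 to 9 with each sample left out and 9 with the replicate block, the paired fit, which changed the calls of Gbp2, Irf1, Irf7 and Ciita and of no other tested member, relative or pathway gene but Trim21. It was 4 with no filter and 5 with no filter and the replicate block, where all 23420 genes were fitted. With no filter, Gbp3, Gbp4, Gbp6, Igtp and Mx1 lost their calls in limma (adjusted p of 0.102, 0.107, 0.198, 0.128 and 0.0884). Ifngr1, Jak1, Cish and Aim2 lost theirs as well (adjusted p of 0.0639, 0.118, 0.219 and 0.0656 in limma). The log2FC values were unchanged, and the cause of the lost calls was not tested. Past a log2FC of 1, 2 to 3 members were called with each sample left out, 1 on log2(CPM + 1), which shrinks the change of low genes, and 0 when limma's treat was run against a log2FC of 1. Gbp6 was lost without the variance trend (0.0568). The median log2FC of the tested members was 0.49 to 0.62 with each sample left out and 0.70 with both replicate 2 samples left out. Over the family and pathway lists, 24 genes were called higher and 23 lower, where 37.6% of all tested genes were higher and 36.7% lower. These counts are thus not read as a result about the lists. Those called higher numbered 20 to 23 with each sample left out, 22 with no filter and 14 with no filter and the replicate block. Those called lower numbered 19 to 24 with each sample left out, and 17 with no filter, with or without the replicate block. Gbp10, which was not called, ran from -0.99 to 0.21 with each sample left out and was above 0 without stimulated replicate 3 (0.21) or unstimulated replicate 1 (0.16). The depth limits Gbp6 and Iigp1, whose values lie near 3 reads in several samples.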
